A study of Mus musculus with 12 samples.

Results

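The effect of KSR1 was measured by setting the 6 arrays of cells that express KSR1 against the 6 arrays of cells that do not, with the presence of H-RasV12 as a covariate. Those 12 arrays are all the arrays of the study, and they came from mouse embryonic fibroblasts with the genotype KSR1 -/- on a DBA background. All 4 lines carried GFP (green fluorescent protein), one of them alone. One more line added H-RasV12, a constitutively active mutant of the small GTPase H-Ras. Another added KSR1, and the line called the double line here carried KSR1 and H-RasV12. Each line was measured on 3 arrays, so 2 lines with KSR1 were compared with 2 lines without it. There was 1 line per condition, and the promoter that drove each transgene, the way the lines were made and whether one was derived from another are not given in the sources used here. The spread that p-values rest on is thus that of arrays of single lines, which may be technical. Of 6897 probe sets tested, 971 (14.1%) were called in this comparison, and 281 of them (4.07% of those tested) were also called, in the same direction, both without and with H-RasV12. These 281 probe sets, which follow KSR1 whatever the Ras status, are the subject of most of what follows.

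KSR1 (kinase suppressor of Ras) is a scaffold protein that binds Raf, MEK and ERK and brings the kinases of this cascade together at the membrane when Ras is active. Fibroblasts that lack it are known to activate ERK poorly and to resist transformation by oncogenic Ras, and re-expression of KSR1 restores both. ERK in turn phosphorylates transcription factors of the ETS and AP-1 families, so a change in the scaffold can reach a broad set of transcripts. In fibroblasts these include immediate early genes, genes of the extracellular matrix and cytoskeleton, and genes of metabolism.

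Values are MAS5 signals, the deposited measure of a probe set's brightness on a linear scale. Differences are log2 fold changes ± SE on the scale log2(signal + 23), on which the changes of dim probe sets come out too small. P-values come from two-sided limma tests with Benjamini-Hochberg adjustment for the 6897 probe sets. A probe set or gene was called, and is said to have risen or fallen, at an adjusted p under 0.05. Across probe sets r was 0.911 to 0.965 for arrays of the same line, and 0.808 to 0.956 for arrays of different ones. The control probe set for 18S ribosomal RNA read 146.4 to 394.7 on the replicate 1 arrays of the GFP, KSR1 and double lines and 515.7 to 3312 on the others. The beta-actin control was at 7981 and 8629 on 2 of these arrays (GFP and double line) but at 16679.7 to 26873 on all others. Both groups of 6 held such arrays, and the part of RNA quality in the results was not tested beyond the values without replicate 1 given below.

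Ksr1 itself was read by 2 probe sets. The first gave 144, 21.1 and 37.5 with GFP, 20.2, 32.2 and 14.2 with H-RasV12, 933, 1605 and 207 with KSR1, and 301, 262 and 141 in the double line. It was low on all arrays without KSR1 except GFP replicate 1, and it varied most among the KSR1 arrays, the lowest of which lay above that GFP array. Its main effect was +2.84 ± 0.45 (limma adjusted p = 0.00072), with +3.22 ± 0.62 without H-RasV12 and +2.47 ± 0.62 with it. One double-line array, at 141, fell just short of GFP replicate 1, at 144, so the 6 and 6 arrays overlapped. The second Ksr1 probe set lay between 180.2 and 366 on all arrays and was not called (+0.30 ± 0.17, limma adjusted p = 0.278). Which part of the transcript each covers was not analysed here.

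The comparison asked which transcripts change with KSR1, and which of those do so with and without the oncogene. In the main effect 390 probe sets (5.65%) rose and 581 (8.42%) fell with KSR1, and 1852 had an unadjusted p under 0.05. The effect was also read within each Ras status, as KSR1 against GFP and as double line against H-RasV12, contrasts that share no array. Without H-RasV12, KSR1 raised 343 probe sets (4.97%) and lowered 470 (6.81%), 813 in all (11.8%). With H-RasV12 it raised 490 (7.1%) and lowered 532 (7.71%), 1022 in all (14.8%). Both called 281 in the same direction, 96 higher (1.39%) and 185 lower (2.68%), and 46 in opposite directions (0.667%). The 281 made up 34.6% of the calls without H-RasV12 and 27.5% of those with it. Across all probe sets, which are not independent replicates, the effects in the 2 contrasts correlated with r = 0.408, and 58.1% had the same sign in both.

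The remaining 690 calls of the main effect were average effects. Of these, 219 were called only without H-RasV12, 302 only with it and 169 in neither, and such a difference in calls is not a test of a difference. The interaction, the KSR1 effect with H-RasV12 minus that without, was called for 531 probe sets (7.7%), above 0 for 287 (4.16%) and below 0 for 244 (3.54%), among them 133 of the 971 and 24 of the 281. Within the 281, the median effect of the higher probe sets was +1.47 without and +1.46 with H-RasV12, and that of the lower ones was -1.64 and -1.70. The 6 arrays with KSR1 lay wholly above or wholly below the other 6 for 247 of the 281. Over all 6897 probe sets this held for 459 (6.66%), with 155 (2.25%) wholly above and 304 (4.41%) wholly below. Membership was set by the same arrays, so the medians and this separation only describe the set.

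The unit behind these counts limits them. When each line was reduced to its mean, which leaves 1 residual degree of freedom, no probe set was called (limma, smallest adjusted p 0.0509), and 739 had an unadjusted p under 0.05. With the line as a random block 741 were called, and without the replicate 1 arrays 532, of which 495 were among the 971. Membership in the set of 281 also has a threshold. Uchl5 (limma adjusted p 0.0308 without and 0.0491 with H-RasV12) and Pkia (0.0492 and 0.000801) lay just inside it, and Ccdc6 (0.0501 and 0.0147) and Dnajc21 (0.0454 and 0.0504) just outside.

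**Figure D1:**
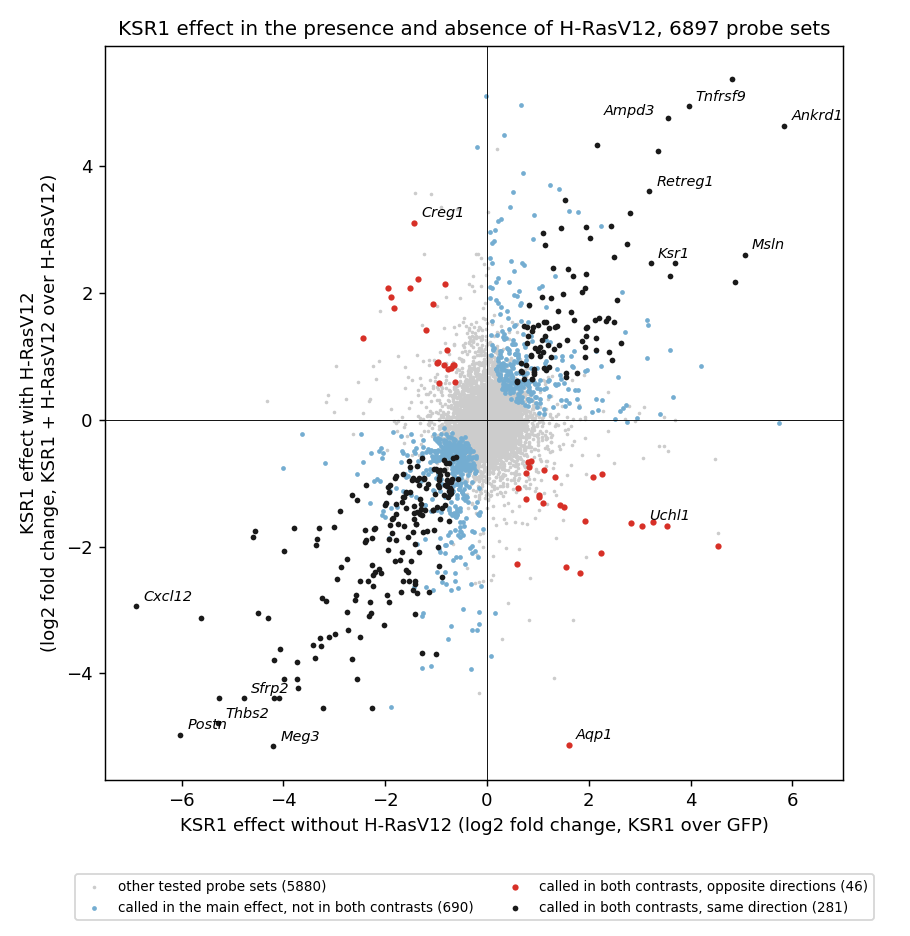
Each point is 1 of 6897 probe sets, with the log2 fold change of KSR1 over GFP on the x axis and that of the double line over H-RasV12 on the y axis. The 281 black points, called in both contrasts with the same sign, lie in the lower left (185) and upper right (96) corners, and the 46 red points were called in both with opposite signs.

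The 12 highest genes called in both settings were led by Ankrd1, Tnfrsf9 and Ampd3, in an order that depends on the constant added before taking log2. Ankrd1, which encodes a cardiac ankyrin repeat protein of sarcomeres and nuclei, read 26.0, 32.4 and 17.7 with GFP, 15.6, 38.1 and 28.9 with H-RasV12, 2311, 2918 and 3005 with KSR1, and 1472, 429 and 2799 in the double line. No array without KSR1 passed 38.1 and none with KSR1 fell under 429. Its main effect was +5.24 ± 0.37 (limma adjusted p = 3.99e-07). Tnfrsf9, a costimulatory receptor of the TNF receptor family, read 67.7, 3.50 and 21.6 with GFP, 3.38, 9.84 and 3.65 with H-RasV12, 1137, 781 and 413 with KSR1, and 891, 1069.6 and 662 in the double line. The arrays with and without KSR1 were again far apart, and the main effect was +4.46 ± 0.33 (limma adjusted p = 8.21e-07). With a constant of 1 in place of 23, Tnfrsf9 rose by 6.19 and Ankrd1 by 6.11 on the log2 scale, and with 100 by 2.93 and 3.95. Ampd3, an AMP deaminase of purine turnover, read 122, 45.7 and 31.2 with GFP, 95.6, 70.2 and 85.4 with H-RasV12, 1288, 846 and 761 with KSR1, and 2330.2, 3165 and 3119.8 in the double line. It was higher in the double line than in the KSR1 line, on every array, and its main effect was +4.16 ± 0.27 (limma adjusted p = 2.55e-07).

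Of the rest of the highest 12, Msln, the surface glycoprotein mesothelin, read 9.17, 20.7 and 27.1 with GFP, 30.9, 89.6 and 25.9 with H-RasV12, 1924, 1270.3 and 1021 with KSR1, and 331, 296 and 569 in the double line. Its groups did not overlap, and its increase was larger without H-RasV12 (+5.06 ± 0.37) than with it (+2.61 ± 0.37; interaction limma adjusted p = 0.00988). Syngr1, a synaptic vesicle membrane protein, lay between 709 and 1454 (median 901) with KSR1 and between 16.1 and 166 (median 36.2) without it (+3.80 ± 0.33). Retreg1, a receptor for the selective autophagy of the endoplasmic reticulum, read 197, 119 and 66.1 with GFP, 249, 243 and 225 with H-RasV12, 1049, 1366 and 1402 with KSR1, and 2509, 3962 and 3182 in the double line. Its spread within each line was small beside the difference, +3.40 ± 0.20 (limma adjusted p = 1.43e-07). Cd24a, a small sialoglycoprotein anchored in the membrane, lay between 2775 and 6573 (median 4301) with KSR1 and between 324 and 1054 (median 712) without it (+2.76 ± 0.22). Lama5, a laminin chain of epithelial basement membranes, lay between 693 and 1425 (median 1023) with KSR1 and between 48.4 and 286 (median 137) without it, and its effect was nearly equal in both settings, at +2.76 ± 0.36 and +2.78 ± 0.36.

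Ndrg2, of the family of genes repressed by Myc, read 124, 23.4 and 46.1 with GFP, 8.95, 7.28 and 5.36 with H-RasV12, 491, 275 and 251 with KSR1, and 598, 759 and 448 in the double line. It rose in both settings, by more with H-RasV12 (+4.34 ± 0.40) than without it (+2.16 ± 0.40; interaction limma adjusted p = 0.0297). Cxcl1, a chemokine that attracts neutrophils, read 3860.2, 245 and 893 with GFP, 997, 528 and 664 with H-RasV12, 14342, 11586 and 10209 with KSR1, and 4272, 2128 and 4667 in the double line. The GFP replicate 1 array at 3860 exceeded 1 of the double-line arrays, so the groups overlapped, and the SE of the main effect was correspondingly wide (+2.94 ± 0.50, limma adjusted p = 0.00116). Ier3, an immediate early response gene and known ERK target, read 1435, 1025 and 1142 with GFP, 955, 1562 and 828 with H-RasV12, 7364, 7408 and 5729 with KSR1, and 5456, 9723 and 5075 in the double line. Its increase differed between the settings by less than its error (+2.49 ± 0.27 and +2.56 ± 0.27), and no array without KSR1 came near the lowest with it.

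**Figure D2:**
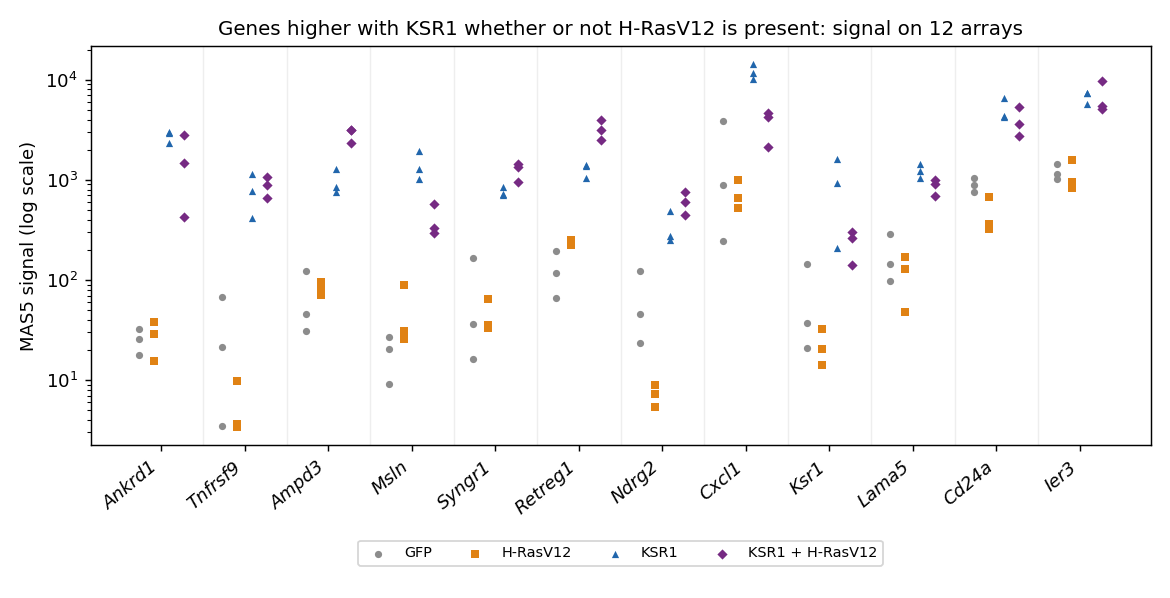
MAS5 signal on a log axis for the 12 genes with the largest increases among those called in the same direction without and with H-RasV12. Each point is 1 array, coloured by line; for 10 of the 12 genes every array with KSR1 (blue, purple) lies above every array without it (grey, orange), and Cxcl1 and Ksr1 overlap.

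The 12 lowest genes called in both settings included 4 that encode matrix proteins, Postn, Thbs2, Ogn and Nid2. Postn (periostin), a matricellular protein, read 1440.1, 3448 and 2817 with GFP, 1214, 1153 and 1469.6 with H-RasV12, 24.5, 21.4 and 1.34 with KSR1, and 2.66, 36.7 and 23.5 in the double line. Every array without KSR1 was above 1000 and every array with it below 40, and the main effect was -5.50 ± 0.30 (limma adjusted p = 9.36e-08). Thbs2 (thrombospondin 2), another matricellular protein, read 5303, 4289 and 2856 with GFP, 2776, 1536 and 2679 with H-RasV12, 91.5, 78.9 and 72.2 with KSR1, and 148, 62.9 and 15.5 in the double line. Its arrays were likewise separate (-5.03 ± 0.30). Ogn, the small leucine-rich proteoglycan osteoglycin, lay between 179.9 and 288 (median 257) with KSR1 and between 1864 and 5187 (median 4269) without it, with nearly equal effects in both settings (-3.74 ± 0.33 and -3.81 ± 0.33). Nid2, a nidogen that links laminin and collagen networks, lay between 1.59 and 83.8 (median 6.30) with KSR1 and between 245 and 1026 (median 669.7) without it (-4.03 ± 0.40).

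Cxcl12, Sfrp2, Ptn and Il1rn, all secreted signalling proteins, were also among the lowest 12. Cxcl12, the chemokine that retains CXCR4-bearing cells, read 2306, 2978 and 5607 with GFP, 2978, 1456 and 2513 with H-RasV12, 1.45, 8.23 and 8.03 with KSR1, and 304, 238 and 267 in the double line. The KSR1 line lay lowest, and the fall was larger without H-RasV12 (-6.89 ± 0.31) than with it (-2.94 ± 0.31; interaction limma adjusted p = 0.000113). The other Cxcl12 probe sets fell too, by 4.37 and 3.72 on the log2 scale. Sfrp2, a secreted antagonist of Wnt ligands, read 2508, 4938 and 8889.5 with GFP, 5768, 2231 and 2685 with H-RasV12, 129.6, 178 and 153 with KSR1, and 98.2, 187 and 128 in the double line, and its main effect was -4.58 ± 0.29 (limma adjusted p = 2.13e-07). Ptn, the heparin-binding growth factor pleiotrophin, lay between 0.3 and 13.8 (median 3.07) with KSR1 and between 235 and 730.2 (median 568) without it. It was near the bottom of the scale on every array with KSR1, so the size of its fall (-4.29 ± 0.29) is set largely by the constant added. With a constant of 1 and of 100 the effect was -7.01 and -2.56 for Ptn, -7.09 and -3.98 for Postn, and -6.00 and -2.54 for Nid2. Il1rn, the natural antagonist of the interleukin 1 receptor, read 6562, 8429 and 15279.9 with GFP, 9769, 5098 and 6530.1 with H-RasV12, 1247, 538 and 497 with KSR1, and 272, 533 and 281 in the double line. It stayed well measured with KSR1 but at a small part of its level without it (-3.98 ± 0.28, limma adjusted p = 4.72e-07).

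The remaining 4 of the lowest 12 were a surface peptidase, a contractile protein and 2 imprinted genes. Mme, the membrane metallopeptidase neprilysin, read 799, 335 and 644 with GFP, 2123, 978 and 959 with H-RasV12, 8.14, 19.9 and 7.79 with KSR1, and 52.9, 110.1 and 90.2 in the double line. The KSR1 line was the lowest on every array, and the fall was called in both settings (-3.84 ± 0.27). Tagln (transgelin), an actin-binding protein of smooth muscle, read 1399, 4092 and 5142 with GFP, 1315, 738 and 982 with H-RasV12, 116, 135 and 94.3 with KSR1, and 143, 90.6 and 72.8 in the double line. The GFP arrays were the highest and the 6 arrays with KSR1 all lay at or below 143 (-3.78 ± 0.33). Meg3, an imprinted long noncoding RNA, read 960.1, 941 and 1744 with GFP, 3581, 1309 and 1229 with H-RasV12, 45.8, 54.7 and 27.9 with KSR1, and 27.3, 31.9 and 25.6 in the double line. Its 6 arrays with KSR1 lay between 25.6 and 54.7, and the main effect was -4.67 ± 0.28 (limma adjusted p = 1.5e-07). Ndn (necdin), an imprinted regulator of growth and differentiation, lay between 4.08 and 42.6 (median 10.2) with KSR1 and between 216 and 1289 (median 595) without it (-3.99 ± 0.37). Of the 185 lower probe sets, 33 lay below the filter level of 181.4 on all 6 arrays with KSR1 and above it on all 6 without. The reverse held for 14 of the 96 higher ones. Over all 6897 probe sets, the arrays with KSR1 lay wholly below the others, at any level, for 304 (4.41%) and wholly above for 155 (2.25%). Membership was set by the same arrays, so the 33 and the 14 only describe the set.

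**Figure D3:**
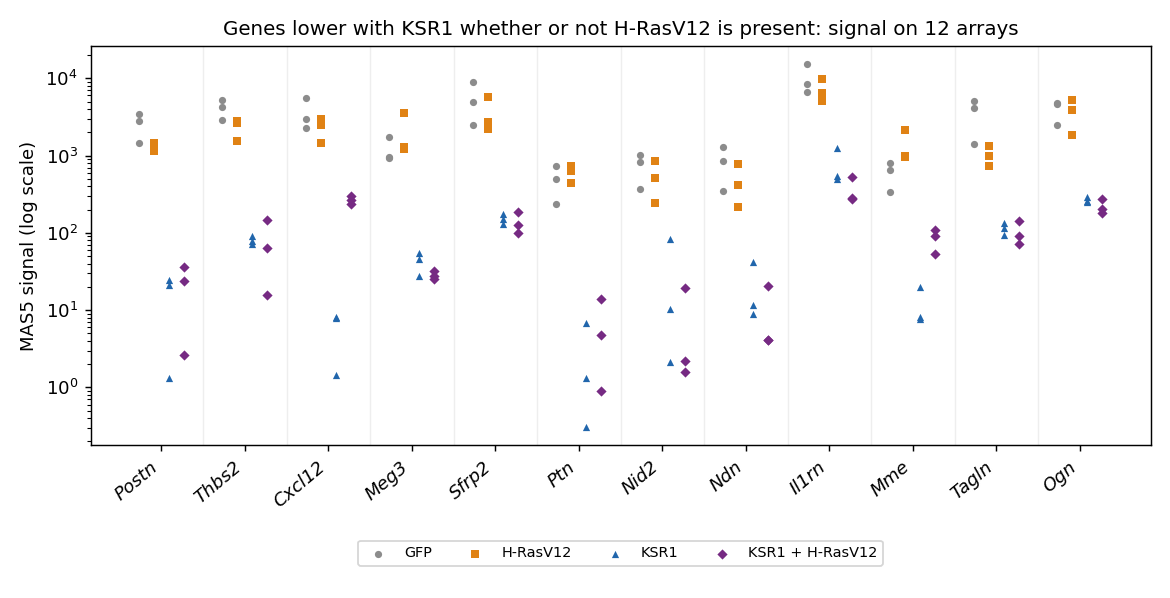
MAS5 signal on a log axis for the 12 genes with the largest decreases among those called in the same direction without and with H-RasV12, 1 point per array, coloured by line. For all 12 genes the arrays with KSR1 (blue, purple) lie below every array without it (grey, orange).

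Gene lists were then read for the main effect, each gene by its brightest probe set. Over all 5288 genes tested this way, 304 (5.75%) rose and 466 (8.81%) fell, 228 (4.31%) were called the same way in both settings, and the median effect was 0.00. Across the lists 160 genes were called, of which 116 were called in each of the 12 fits that left out 1 array in turn. Where a named gene was among the other 44, this is said. Calls that ended when the replicate number was fitted as a block are given as ended with the replicate block.

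Collagen and laminin genes fell, where 8.81% of all genes did. Of 25 tested, 15 fell and 1 (Lama5) rose, with a median of -1.18, and 11 were called lower in both settings. The fibrillar collagens Col3a1 (-1.64 ± 0.20), Col5a2 (-1.51 ± 0.17), Col1a2 (-0.94 ± 0.15) and Col11a1 (-2.71 ± 0.28) fell, as did both beaded-filament collagens Col6a1 (-2.25 ± 0.30) and Col6a2 (-2.67 ± 0.26). A second, dimmer Col1a2 probe set was not called (+0.12 ± 0.15). Col1a1, the major chain of collagen I, lay between 178 and 9357 (median 5924) with KSR1 and between 14039 and 22324 (median 18323) without it. Its decrease (-2.50 ± 0.64, limma adjusted p = 0.0177) was spread unevenly over the double-line arrays, at 4299, 1921 and 178, and its adjusted p was 0.0506 without the replicate 1 arrays. Lama2 and Lama4, laminin chains of muscle and vessels, also fell (-2.16 ± 0.30 and -2.07 ± 0.31). The basement membrane collagen Col4a1 was not called, with -3.16 ± 0.28 without and +0.28 ± 0.28 with H-RasV12.

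Of 27 matricellular proteins and proteoglycans, 15 fell and 1, the glypican Gpc1, rose (+0.91 ± 0.16), with a median of -1.25. Beside Postn, Thbs2 and Ogn, the called members included Fmod (fibromodulin, -3.22 ± 0.50), Mgp (matrix Gla protein, -3.21 ± 0.57), Ccn2 (connective tissue growth factor, -2.18 ± 0.41), Tnc (tenascin C, -1.38 ± 0.33), Vcan (versican, -1.50 ± 0.14) and Sparc (osteonectin, -1.25 ± 0.20). Fibronectin, Fn1, was not among them (-0.28 ± 0.13, limma adjusted p = 0.187). Of 14 matrix proteases, inhibitors and crosslinkers 5 fell and none rose. Serpinf1, the antiangiogenic serpin PEDF, read 5639, 7887 and 8129 with GFP, 7046, 7126 and 8559 with H-RasV12, 2075, 1243 and 1379 with KSR1, and 3752, 2989 and 1085 in the double line, and the groups did not overlap (-1.95 ± 0.26). Timp3, an inhibitor of metalloproteinases bound to the matrix, fell by 1.32 ± 0.20 on the log2 scale, and Plat, the tissue plasminogen activator, by 1.33 ± 0.26.

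Contractile genes divided. Of 21 smooth muscle and SRF cytoskeleton genes, 9 fell and 1 (Ankrd1) rose, with a median of -0.49, and 6 were called lower in both settings. Those that fell were Tagln, Fhl1, Csrp2 (-2.60 ± 0.23), the regulatory myosin light chain Myl9 (-2.48 ± 0.34), the smooth muscle actins Acta2 (-2.06 ± 0.26) and Actg2 (-1.36 ± 0.20), Csrp1 (-0.81 ± 0.18), Tpm2 (-0.64 ± 0.14) and Cnn3 (-0.57 ± 0.14). Fhl1, a LIM domain protein, read 372, 2515 and 1976 with GFP, 598, 325 and 359 with H-RasV12, 20.9, 48.7 and 26.6 with KSR1, and 103, 97.6 and 121 in the double line. The GFP arrays ranged from 372 to 2515 and all 6 arrays with KSR1 lay at or below 121 (-3.15 ± 0.52). General cytoskeleton genes were not called, among them Vcl (-0.04 ± 0.19) and Tpm4 (+0.02 ± 0.15). Actb was not called either (+0.36 ± 0.76). Its probe set ran from 124.8 to 2978 with KSR1 and from 79.1 to 2268 without it, too widely to tell whether Actb changed.

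Transcripts of the cascade that KSR1 organises gave 1 call. Of 23 tested genes of Raf, MEK, ERK and KSR1's partners 1 rose and none fell, with a median of 0.06. That gene was Map2k1, which encodes MEK1. It read 869, 1048 and 741 with GFP, 726, 942 and 713 with H-RasV12, 1059.6, 1293 and 871 with KSR1, and 1300.1, 1331 and 1526 in the double line. The groups overlapped, and the effect of +0.53 ± 0.15 (limma adjusted p = 0.0344) lost its call in 7 of the 12 fits without 1 array, with an adjusted p of up to 0.0887 without H-RasV12 replicate 1. None of the 5 tested feedback phosphatases and Sprouty genes was called in the main effect. Dusp6, the ERK phosphatase induced by ERK, had +1.35 ± 0.59 without H-RasV12 (limma adjusted p = 0.17) and -1.87 ± 0.59 with it (limma adjusted p = 0.0466), for an interaction of -3.21 ± 0.83 (limma adjusted p = 0.0288).

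Of 21 immediate early and delayed ERK targets, 5 rose and 3 fell, with a median of 0.11. Ier3 and Fosl1 (Fra-1), an AP-1 subunit, rose in both settings. Fosl1 read 878, 716 and 327 with GFP, 369, 1104 and 740.1 with H-RasV12, 2821, 3006 and 2266 with KSR1, and 2291, 1536 and 1361 in the double line. Every array with KSR1 lay above every array without it (+1.72 ± 0.29). Plaur, the urokinase receptor (+1.05 ± 0.25), and Junb (+0.76 ± 0.17) rose as averages and were called only without H-RasV12, and a dimmer Junb probe set was not called in the main effect (+1.64 ± 0.60). Jun also rose (+0.80 ± 0.25), a call that ended in 8 of the 12 fits without 1 array and with the replicate block (limma adjusted p = 0.0517). Egr2, a zinc finger immediate early gene, fell in the main effect, with -2.21 ± 0.27 with H-RasV12 and -0.66 ± 0.27 without it (interaction limma adjusted p = 0.024). It was not called without H-RasV12. Fos (-1.28 ± 0.35) and Ccn1 (-0.91 ± 0.25) fell in the main effect and were not called in either setting, and their calls ended in 6 and 4 of the 12 fits. Without GFP replicate 2 or 3 the list held 1 lower call, and without the replicate 1 arrays 2 higher calls.

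Chemokines and inflammatory factors moved in both directions. Of 16 tested, 6 rose and 4 fell, with a median of 1.20, of 2.21 without H-RasV12 and of 0.12 with it. Beside Cxcl1, the monocyte chemokine Ccl2 rose in both settings (+2.55 ± 0.36 and +1.89 ± 0.36). It read 1883, 2161 and 955 with GFP, 1683, 1641 and 2086 with H-RasV12, 12478, 7495 and 8657 with KSR1, and 7949, 3672 and 10364 in the double line. Saa3, an acute phase protein, read 758, 11.0 and 10.4 with GFP, 7.74, 10.7 and 14.4 with H-RasV12, 1182, 211 and 308 with KSR1, and 459, 76.5 and 449.6 in the double line, so that GFP replicate 1 lay above 5 of the 6 arrays with KSR1 (+2.65 ± 0.72, limma adjusted p = 0.0251). Il6 (+2.33 ± 0.62), Lcn2 (+2.33 ± 0.68) and Ptges (+1.17 ± 0.37) made up the other increases, and a second Lcn2 probe set was not called (+0.24 ± 0.18). These 3, with Saa3, lost their calls in 2 to 10 of the 12 fits without 1 array, and Ptges also with the replicate block (limma adjusted p = 0.055). The list then held 2 higher calls without GFP replicate 2 or 3, and 3 without replicate 1 of the H-RasV12, KSR1 or double line. Cxcl12, the pattern recognition protein Ptx3 (-2.44 ± 0.22), Ccl9 (-1.92 ± 0.35) and Cxcl14 (-1.34 ± 0.30) fell, and each kept its call in all 12.

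Growth factors and their receptors gave 7 calls. Of 13 growth factors Ptn and Vegfd, a lymphatic endothelial growth factor (-1.01 ± 0.20), fell. Hbegf, a membrane-anchored EGF family ligand cleaved to activate its receptor, rose on average (+1.00 ± 0.29, limma adjusted p = 0.0325). It read 253, 289.8 and 142 with GFP, 165, 304 and 226 with H-RasV12, 1039, 786 and 689.6 with KSR1, and 259.6, 221 and 311 in the double line, so that only the KSR1 line was high (interaction limma adjusted p = 0.0216), and the main call ended in 7 of the 12 fits. Of 17 receptors, Pdgfrb, the fibroblast PDGF receptor (-2.04 ± 0.36), the growth hormone receptor Ghr (-1.14 ± 0.27) and Lifr (-1.27 ± 0.39) fell and Erbb3 rose (+1.04 ± 0.28). The calls of Lifr and Erbb3 ended in 8 and 3 of the fits without 1 array, and that of Lifr also with the replicate block (limma adjusted p = 0.0631).

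Secreted regulators of Wnt and TGF-beta signalling fell. Of 10 Wnt pathway genes 5 fell and none rose (median -0.98), namely Sfrp2, Dkk3, the receptors Fzd1 and Fzd2 (-0.98 ± 0.22) and Sfrp1 (-1.58 ± 0.39). Without H-RasV12 replicate 1 the adjusted p of Sfrp1 was 0.0505. Dkk3, of the Dickkopf family, lay between 17.3 and 186 (median 102) with KSR1 and between 397 and 595 (median 536) without it (-2.25 ± 0.35), and Fzd1, a Frizzled receptor, lay between 58.8 and 279 (median 123) with KSR1 and between 344 and 1049 (median 678) without it (-2.06 ± 0.33). Of 19 genes of the TGF-beta and BMP list 5 fell and 1 rose, and 8 fell without KSR1 replicate 3. The one that rose, the BMP antagonist Grem1 (+1.23 ± 0.38), lost its call in 10 of the 12 fits without 1 array and with the replicate block (limma adjusted p = 0.0573). Ltbp2, a latent TGF-beta binding protein of microfibrils, read 2099.5, 1388 and 1505 with GFP, 1059.8, 759 and 555 with H-RasV12, 941, 722 and 686 with KSR1, and 195, 90.0 and 52.1 in the double line. The double line was the lowest, and 2 H-RasV12 arrays lay below the highest KSR1 array (-1.87 ± 0.32). Fstl1, a secreted follistatin-like glycoprotein (-1.24 ± 0.21), the inhibitory Smad6 (-1.18 ± 0.20) and Bmp1, which cleaves procollagen (-0.93 ± 0.17), fell in both settings. A second Bmp1 probe set of like brightness was not called (-0.26 ± 0.20, limma adjusted p = 0.445). Of 4 binding proteins of insulin-like growth factors Igfbp3 fell (-1.77 ± 0.38). Igfbp4 was not called in the main effect, with +1.31 ± 0.57 without and -4.07 ± 0.57 with H-RasV12 (interaction limma adjusted p = 0.00119).

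Imprinted genes, which are expressed from 1 parental allele and are active in fetal tissue, fell beyond the 2 among the lowest 12. Of 14 tested 6 fell and none rose, with a median of -1.03, and 5 of the 6 were called lower in both settings. Mest, a hydrolase-like protein, read 256, 663 and 1919 with GFP, 1329.6, 310.3 and 365 with H-RasV12, 36.7, 29.9 and 74.9 with KSR1, and 17.2, 29.4 and 28.3 in the double line. The arrays without KSR1 varied widely, from 256 to 1919, and none with KSR1 passed 74.9 (-3.48 ± 0.43). Dlk1, a transmembrane inhibitor of adipocyte differentiation, fell by 2.97 ± 0.28 on the log2 scale, Grb10, a receptor adaptor, by 1.78 ± 0.36, and Plagl1, a zinc finger factor, by 1.73 ± 0.43. All 6 kept their calls in every fit without 1 array. The other 8 included Igf2 (+0.02 ± 0.27, limma adjusted p = 0.972) and Peg3, which had -2.11 ± 0.57 without H-RasV12 and +1.72 ± 0.57 with it.

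Transcription factors of body position showed decreases and no increase. Of 24 Hox, T-box and related genes, 8 fell (median -0.36), 5 of them in both settings. Pbx3, a Hox cofactor, read 1141, 1173 and 2568 with GFP, 1665, 907 and 2114 with H-RasV12, 385, 339.9 and 736 with KSR1, and 329, 291 and 372 in the double line, with no overlap between the groups (-1.88 ± 0.26). Six2 (-1.70 ± 0.27) and Meis1 (-1.42 ± 0.27), a homeobox factor and a second Hox cofactor, fell by a like amount. Of 16 genes of mesenchymal or epithelial state 4 fell and 3 rose. Snai2 (Slug), a repressor of epithelial genes, read 2509.9, 4514 and 4066 with GFP, 5152, 3846 and 5567 with H-RasV12, 1049, 1284 and 1504 with KSR1, and 1136, 942 and 949.8 in the double line. Its fall was called in both settings (-1.86 ± 0.19, limma adjusted p = 1.54e-05). Prrx2, a mesenchymal homeobox gene, fell by more with H-RasV12 (-3.70 ± 0.23) than without it (-0.99 ± 0.23; interaction limma adjusted p = 0.000179). Krt19, a keratin of simple epithelia, rose (+2.50 ± 0.34), while E-cadherin, Cdh1, was not called (+0.25 ± 0.19).

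Genes of glucose uptake and glycolysis rose. Of 17 tested, 10 rose and none fell, with a median of 0.64, which was 0.15 without H-RasV12 and 1.09 with it. Slc2a1, the ubiquitous glucose transporter GLUT1, read 658, 384 and 214 with GFP, 318, 649 and 459 with H-RasV12, 1641, 1377 and 550.2 with KSR1, and 3892, 4527 and 3346 in the double line. The double line stood above all others, while the KSR1 replicate 3 array, at 550.2, lay below the highest GFP and H-RasV12 arrays (+2.24 ± 0.36). Hk2, the inducible hexokinase, read 457, 534 and 373 with GFP, 201, 319.6 and 289 with H-RasV12, 1059, 1077 and 947 with KSR1, and 1501, 2298 and 2076 in the double line. Its groups did not overlap (+1.95 ± 0.26), and the increase was larger with H-RasV12 (interaction limma adjusted p = 0.00475). These were the genes of the list called in both settings, and with Pgk1 (+0.65 ± 0.17) and Tpi1 (+0.68 ± 0.17) they were the 4 that kept their calls in all 12 fits without 1 array. Pfkp, a phosphofructokinase, read 413, 377 and 378 with GFP, 389, 436 and 517 with H-RasV12, 469, 445 and 345 with KSR1, and 2428, 3667 and 3687 in the double line, so that the main effect of +1.44 ± 0.39 rested on the double line, and it lost its call without H-RasV12 replicate 1 or 3 or double-line replicate 2 or 3 (limma adjusted p 0.0505 to 0.0596). The count of the list was 5 or 6 without any single H-RasV12 or double-line array and 3 without the replicate 1 arrays, and the interaction was called for 6 of the 17 (8.26% of all genes).

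**Figure D4:**
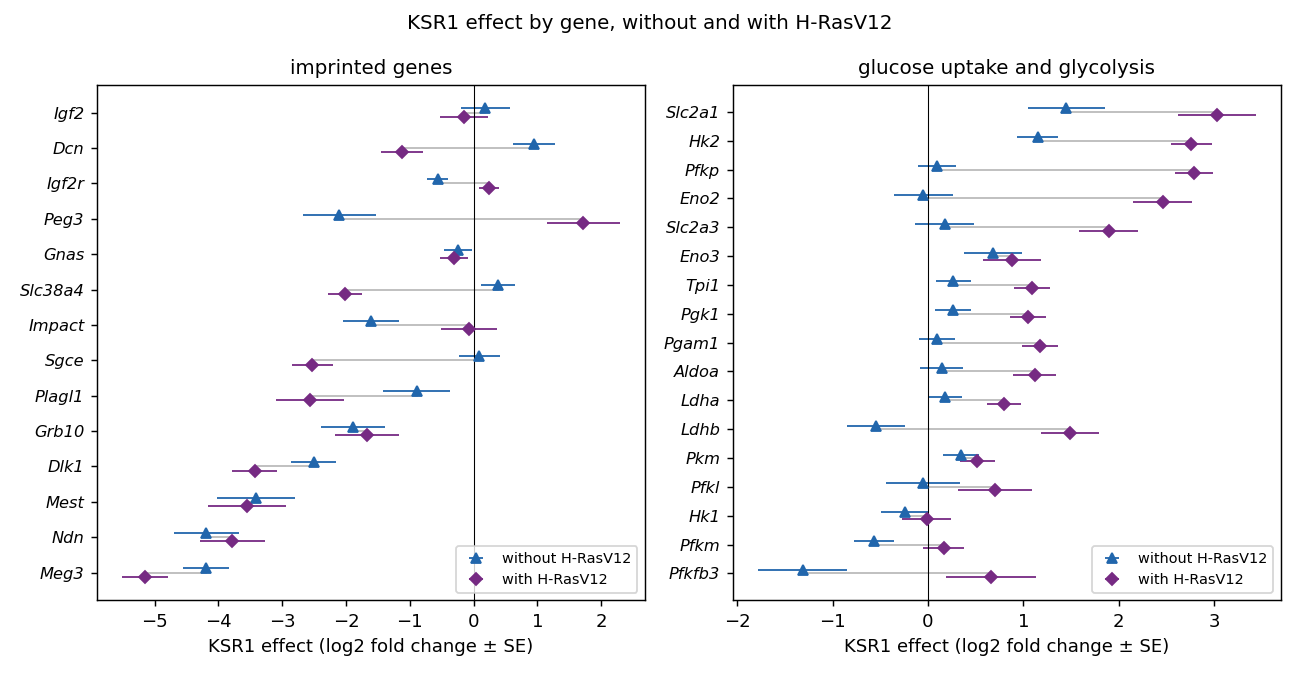
KSR1 effect (log2 fold change ± SE) for the 14 imprinted (left) and 17 glycolytic (right) genes tested, with triangles for KSR1 over GFP and diamonds for the double line over H-RasV12. The 5 lowest imprinted genes lie left of 0 in both settings, while most glycolytic genes lie near 0 without H-RasV12 (median 0.15) and right of it with H-RasV12 (median 1.09).

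Mitochondrial genes were rarely called in the pooled comparison. Of 51 oxidative phosphorylation genes 2 rose and 1 fell, although 23 rose with H-RasV12 and 4 fell without it (12 interactions called). Over all 5288 genes 403 rose with H-RasV12, 381 fell without it and 437 (8.26%) had a called interaction. The 4 that fell without H-RasV12 were thus near the share of all genes. Cytochrome c, Cycs, rose (+1.27 ± 0.27), and Ndufa7, a subunit of complex I, fell (-0.57 ± 0.14). Uqcrc1, of the cytochrome bc1 complex (+0.49 ± 0.14), rose and lost its call in 7 of the 12 fits. Of 19 genes of the citric acid cycle and pyruvate dehydrogenase, 3 rose in the main effect, Mdh2 (+0.61 ± 0.18), Dlst (+0.44 ± 0.13) and Pdk4 (+1.58 ± 0.45), and 0 or 1 without any single H-RasV12 or double-line array. With H-RasV12 14 of the 19 rose, without it none did, and none fell in either setting (7 interactions called). In fatty acid oxidation 1 of 18 rose in the main effect, Acadl (+0.96 ± 0.26), a call that ended in 5 of the fits. With H-RasV12 6 of the 18 rose and none fell, and without it 4 fell and none rose (9 interactions called).

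Among lysosome and lipid storage genes all calls in the main effect were increases. Of 32 lysosome genes 5 rose and none fell. With H-RasV12 14 rose and none fell, and without it 1 rose and 2 fell. The interaction was called for 10 of the 32 (8.26% of all genes). Ctsl, cathepsin L, was called in both settings (+0.89 ± 0.18 and +0.64 ± 0.18). Ctsk, a collagen-degrading cathepsin, read 319.5, 56.7 and 87.0 with GFP, 128, 127 and 91.1 with H-RasV12, 512, 124 and 129.6 with KSR1, and 3828, 4753 and 4303 in the double line, and Cd68, a macrophage-associated lysosomal glycoprotein, read 199.9, 197 and 133 with GFP, 154, 201 and 176 with H-RasV12, 162, 146 and 142 with KSR1, and 3559, 5184 and 3293 in the double line. For both the double line alone was high (interaction limma adjusted p = 0.00192 and 1.18e-06), and for Cd68 the main call ended without any H-RasV12 or double-line array (limma adjusted p 0.0802 to 0.0975) and with the replicate block (0.0596). The list then held 3 calls. Of 13 adipocyte and lipid storage genes 4 rose in the main effect, and 1 was called lower with H-RasV12. Plin2, the coat protein of lipid droplets, read 1948, 1405 and 1542 with GFP, 2244, 2446 and 1985 with H-RasV12, 4111, 2748 and 3749.9 with KSR1, and 15576, 18016 and 18482 in the double line. All arrays with KSR1 were above all without it (+2.02 ± 0.28), by more with H-RasV12 (interaction limma adjusted p = 0.000927). Klf5, a zinc finger factor of early adipogenesis, lay between 173 and 1011 (median 668) with KSR1 and between 103 and 162 (median 120.4) without it (+1.92 ± 0.28), and Cebpd, a C/EBP factor of the same stage, overlapped between the groups (+1.21 ± 0.29). The fourth, the fatty acid binding protein Fabp5 (+0.62 ± 0.18), lost its call in 7 of the 12 fits.

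Interferon-response genes fell. Of 12 tested 7 fell and none rose, with a median of -0.83, and none was called in both settings. Isg15, a ubiquitin-like protein, read 570.2, 150.3 and 258 with GFP, 1355, 593 and 476 with H-RasV12, 125, 29.7 and 28.0 with KSR1, and 467, 237 and 124 in the double line. The replicate 1 arrays were the highest of each line, and the groups overlapped (-1.78 ± 0.40, limma adjusted p = 0.00799). Ifit1 read 365, 52.6 and 51.7 with GFP, 1001, 170.3 and 479 with H-RasV12, 12.4, 10.9 and 10.4 with KSR1, and 117, 113 and 84.8 in the double line, with the same excess on replicate 1 of the GFP and H-RasV12 lines (-1.89 ± 0.45). Without the replicate 1 arrays 3 of the list were called, and the adjusted p of Ifit1 and Ifit3 was 0.0835 and 0.114. The part of the replicate 1 arrays in this result was not tested further.

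Genes of proliferation were seldom called. None of 26 mitosis genes was called (median 0.05), and of 29 S phase genes Rrm2 (+0.60 ± 0.17) and Cdt1 (+0.46 ± 0.14) rose, with calls that ended in 6 and 8 of the fits without 1 array. Of 14 p53 targets and cell cycle inhibitors Sesn1 (-1.08 ± 0.19) and Gadd45a (-1.07 ± 0.23) fell and Btg1 rose (+0.61 ± 0.19), the last in 3 of the 12 fits without 1 array and not with the replicate block (limma adjusted p = 0.0537). Of 31 glutathione and antioxidant genes 5 rose and 3 fell. Gpx7, a peroxidase of the endoplasmic reticulum, lay between 11.9 and 324 (median 64.6) with KSR1 and between 374 and 679.9 (median 580.3) without it (-2.75 ± 0.42), and the transferases Gstt1 (-1.40 ± 0.28) and Gstm2 (-1.56 ± 0.35) fell, while Sod2 (+1.11 ± 0.22), Gsr (+0.95 ± 0.22), Mt2 (+0.75 ± 0.14) and Gclc (+0.60 ± 0.15) rose. A second Gstm2 probe set was not called and had the opposite sign (+0.25 ± 0.23). Of 17 ribosomal protein genes 1 fell, Rpl22 (-1.06 ± 0.19), read by a second probe set that was not called (+0.04 ± 0.19, limma adjusted p = 0.931). Of 20 genes of the unfolded protein and ATF4 response 1 rose, while Trib3 (-1.15 ± 0.24), Asns (-0.58 ± 0.13) and Herpud1 (-0.54 ± 0.12) fell. Of 15 cholesterol synthesis genes Cyp51 (-0.67 ± 0.14) and Mvk (-0.54 ± 0.15) fell, the latter in 6 of the 12 fits, and of 17 adhesion receptors the gap junction gene Gja1 rose (+0.94 ± 0.14).

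**Figure D5:**
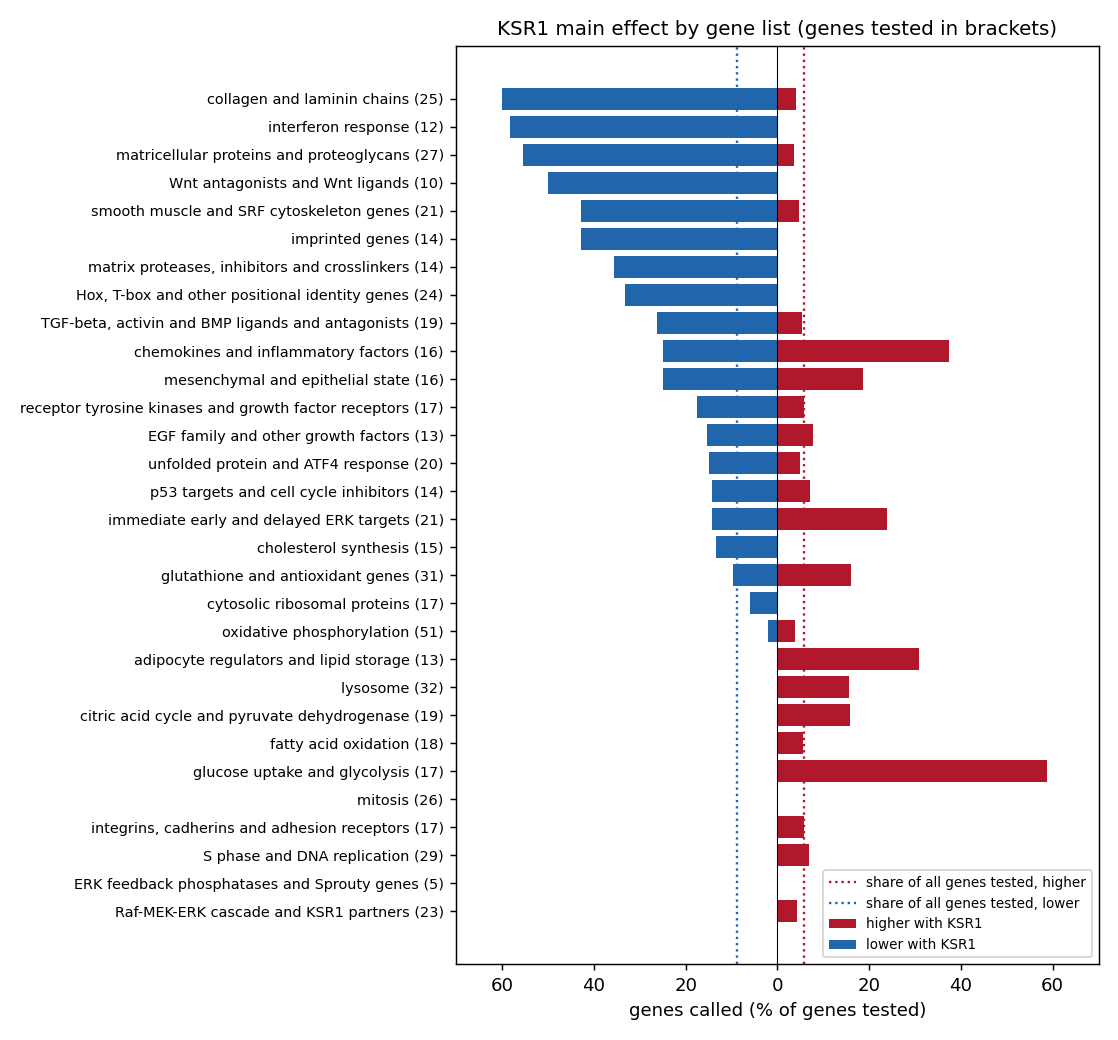
Share of the tested genes of each list called in the KSR1 main effect, with bars to the right for genes higher with KSR1 and to the left for genes lower, and the number tested in brackets. Dotted lines mark the shares over all 5288 genes (5.75% higher, 8.81% lower); matrix, Wnt, smooth muscle, imprinted and interferon lists extend farthest to the left, and glycolysis, chemokines, adipocyte genes and ERK targets farthest to the right.

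Markers of cell identity were measured beside these changes. Of 12 fibroblast markers 10 were tested, and 6 fell with KSR1, among them Lum (-1.97 ± 0.43) and the collagens above, and none rose. Their summed signal ran from 23108 to 42735 on the arrays with KSR1 and from 53586 to 74572 on those without. Within a Ras status 3 of these markers fell without H-RasV12 and 6 with it, and none rose. Pdgfra (+0.06 ± 0.19), S100a4 (-0.16 ± 0.20), P4hb (+0.07 ± 0.14) and Dcn were not called. Dcn read 3223, 2652 and 2546 with GFP, 5842, 3371 and 5467 with H-RasV12, 8734, 4357 and 4162 with KSR1, and 3305, 2224 and 1405 in the double line. Thy1 (8.90 to 55.8) and Vim (29.6 to 128.4) lay below the filter on all 12 arrays. Mesothelial markers went the other way, with Msln and Krt19 called and a summed signal of 1406.5 to 2778.6 with KSR1 and 258.2 to 328.4 without, but Upk3b (28.6 to 196.0) and Wt1 (24.7 to 125.0) lay below the filter. Of 10 epithelial markers Krt19 alone was called, and Epcam (2.50 to 31.4), Krt8 (7.70 to 32.3) and Krt18 (31.3 to 85.0) were near the bottom of the scale. Leukocyte Ptprc (5.70 to 27.4), Adgre1 (4.00 to 27.8) and Lyz2 (3.90 to 17.4) were as low, while Cd14 was measured and rose (+0.61 ± 0.18), a call that ended in 6 of the 12 fits. No tested endothelial, neural or skeletal muscle marker was called. In cultures such as these, fewer cells of a kind and less RNA per cell cannot be told apart, and the part of cell composition in the changes of matrix genes was not tested.

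Promoters of genes that moved together were searched for 4 motifs chosen after the values had been seen, in the 250 bases before each annotated start, on both strands. Sequences are from RefSeq (GRCm38.p6), which covered 61 of the higher and 110 of the lower genes called in both settings. The AP-1 site TGANTCA, bound by the Fos and Jun proteins that ERK regulates, lay in 16.4% of the higher (10 genes) and 9.09% of the lower genes (10 genes), against 5.93% of 4300 tested genes and 7.82% of all 27025. Ksr1, the gene that was itself added to the lines with KSR1, is 1 of the 10 higher genes. The serum response factor site, the CArG box, is CC and GG around 6 bases that are A or T. It lay in 4.92% of the higher (3 genes) and 4.55% of the lower genes (5 genes), against 1.56% of tested genes. The TEAD site GGAATG lay in 13.1% and 17.3%, against 12.5%. A single form of the NF-kappaB site (GGGA, any base, then TTTCC) lay in 1 higher gene, Cxcl1, and no lower gene, against 0.512%. Other forms of the site were not searched for, so genes without this match, Tnfrsf9 among them, may still hold one. These matches describe letters in a window, their shares were not tested, and binding was not measured. The stretches below show a match in capitals, for 2 AP-1 genes that rose (Tnfrsf9, Gja1), 1 that fell (Il1rn), 1 that rose and followed the Ksr1 probe set closely (Glrx), the NF-kappaB match of Cxcl1, 1 of the 2 TEAD matches of Ankrd1 and the CArG box of the smooth muscle gene Myl9. They lie at chr4:150927939-150927998 (+), chr10:56377236-56377299 (+), chr2:24336674-24336770 (+), chr13:75839742-75839838 (+), chr5:90891129-90891228 (+), chr19:36120004-36120094 (-) and chr2:156775258-156775357 (+).
Tnfrsf9: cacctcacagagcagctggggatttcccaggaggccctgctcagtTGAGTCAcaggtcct
Gja1: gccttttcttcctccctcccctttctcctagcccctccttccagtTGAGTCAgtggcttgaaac
Il1rn: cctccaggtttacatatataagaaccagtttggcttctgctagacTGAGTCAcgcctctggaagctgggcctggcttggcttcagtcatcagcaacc
Glrx: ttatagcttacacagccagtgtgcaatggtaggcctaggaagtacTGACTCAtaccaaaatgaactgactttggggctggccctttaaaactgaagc
Cxcl1: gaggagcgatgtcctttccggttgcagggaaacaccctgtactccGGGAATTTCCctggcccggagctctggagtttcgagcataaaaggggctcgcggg
Ankrd1: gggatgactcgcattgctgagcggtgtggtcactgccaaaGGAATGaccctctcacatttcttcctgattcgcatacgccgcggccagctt
Myl9: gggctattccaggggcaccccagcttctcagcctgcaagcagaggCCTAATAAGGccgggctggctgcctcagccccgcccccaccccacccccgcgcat

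The genes with the AP-1 matches ran in both directions. Tnfrsf9, whose match starts 15 bases before its start site, had no array without KSR1 above 67.7. Gja1, the connexin of gap junctions, with a match 19 bases before its start, read 3666, 3245 and 3693 with GFP, 3632, 2803 and 3537 with H-RasV12, 5688, 5608 and 8309 with KSR1, and 5340.5, 7535 and 7556 in the double line, a small rise that every array showed (+0.94 ± 0.14, limma adjusted p = 0.000512). Il1rn carries the same motif 141 bases before its start and fell. Cxcl1, with the NF-kappaB match 71 bases before its start, rose on a second probe set too (+3.09 ± 0.51). Myl9, with the CArG box, lay between 19.3 and 137 (median 71.7) with KSR1 and between 237 and 916 (median 443) without it, and fell in both settings, while Ampd3, which also holds a CArG box in its promoter, rose.

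The probe sets most like the first Ksr1 probe set over the 12 arrays, on the log2 scale, were those of Pim3 (r = 0.94), Dmpk (0.931), Glrx (0.919), Mfge8 (0.908) and Sinhcaf (0.898). Glrx, a glutaredoxin, read 875, 494 and 554 with GFP, 619, 699 and 400 with H-RasV12, 3806, 3375 and 3045 with KSR1, and 1251, 1323 and 1051 in the double line. It was higher in the KSR1 line than in the double line, and above both lines without KSR1 in each (+1.74 ± 0.24). Of these 5, Glrx and Sinhcaf belonged to the set of 281. These likenesses rest on 12 arrays of 4 lines and describe these arrays.

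Some genes of the set are adjacent in genome order when untested genes between them are skipped. Of 5232 such pairs of tested genes, 18 had both members in the set, and 13 of these moved in the same direction. The set holds 4.31% of the genes tested, 82 higher and 146 lower, so some such pairs arise in any order. Whether 18 is more than that was not tested. Among them were the collagen pairs Col3a1 and Col5a2, and Col6a1 and Col6a2, the imprinted neighbours Dlk1 and Meg3, and Glrx with Ell2, an elongation factor that rose (+1.25 ± 0.22). On the X chromosome Capn6 (-2.72 ± 0.26), Amot (-1.97 ± 0.18) and Maged2 (-1.35 ± 0.26) were consecutive among tested genes and fell. The distances between them were not measured.

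Genes called in opposite directions by the 2 contrasts show what the pooled effect leaves out. Aqp1, a water channel, read 933, 959.5 and 429 with GFP, 742, 1932 and 1312 with H-RasV12, 2386, 2479 and 1976 with KSR1, and 13.2, 16.2 and 9.87 in the double line. It rose with KSR1 alone (+1.61 ± 0.33) and fell in the double line (-5.13 ± 0.33), and its main effect of -1.76 ± 0.93 was not called (limma adjusted p = 0.248). Uchl1, a neuronal deubiquitinase, read 122, 219 and 122 with GFP, 152, 131 and 169 with H-RasV12, 1596, 1267 and 1350.5 with KSR1, and 40.8, 35.6 and 20.0 in the double line, and Adam8, a membrane metalloproteinase, read 47.3, 25.1 and 20.4 with GFP, 92.0, 324 and 176 with H-RasV12, 461, 483 and 515 with KSR1, and 33.8, 34.6 and 62.0 in the double line. Both were highest in the KSR1 line. In the double line Uchl1 lay below every other array, and Adam8 was near its level with GFP. Creg1, a secreted glycoprotein of the endolysosome, ran the other way and read 93.7, 59.6 and 89.7 with GFP, 112, 15.0 and 63.6 with H-RasV12, 25.9, 8.46 and 13.1 with KSR1, and 464, 684 and 814 in the double line, with -1.43 ± 0.44 without and +3.11 ± 0.44 with H-RasV12.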

How the data were processed

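MG-U74Av2 arrays of 4 cell lines, 3 per line, were measured. The deposited intensity values are MAS5 signals on a linear scale, per the submitters' processing notes, and the mean of each array's deposited values, without 2% at either end, was 500.3. No version or other step is given in the sources used here, and signals carry no count, so the number of arrays limits the precision. Of 12488 probe sets, 66 controls were left out. Gene names came from GEO's platform annotation, with 10833 probe sets of 1 symbol, 396 of several and 1193 of none. Probe sets with a signal over 181.4 (the median value) on 3 or more of the 12 arrays were tested, which left 6897 and set aside 5525. On log2(signal + 23), where 23 is the 20th percentile, limma 3.58.1 in R 4.3.3 fitted an additive model of KSR1 and H-RasV12 (9 residual degrees of freedom) for the main effect and line means (8 degrees of freedom) for the contrasts within a Ras status and the interaction, with an intensity trend and two-sided Benjamini-Hochberg adjusted p-values. The main-effect fit was tested on simulated arrays with independent noise and no differences between lines beyond the KSR1 effect. That simulation therefore does not bear on the limit of 1 line per condition. The comparison, gene lists and tests were chosen with earlier results of these data known. Genes were named by rule: the Ksr1 probe sets, the 12 highest and 12 lowest called in both settings, the 4 largest opposite, and the 3 largest called of each list. Other genes named were chosen after their values were seen. Replicate numbers were taken to pair arrays between the GFP and KSR1 lines, since same-numbered arrays deviated together (r = 0.511, 0.209 and 0.367). Between the H-RasV12 and double lines r was 0.033, 0.026 and 0.381. No pairing was taken there, which does not show that none exists. Over all lines the median r was 0.198 for the 18 same-numbered pairs of arrays and -0.1265 for the 36 differently numbered ones. The main fits, KSR1 against GFP included, did not use this pairing. The replicate block, run only as an alternative, covered all 4 lines. Alternatives were another filter, pseudocount, normalization, trend or weighting, a replicate or line block, line means, and fits without single or replicate 1 arrays.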

Additional observations from a re-analysis of the deposited data

Results flagged for a closer look

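The interaction of KSR1 and H-RasV12 was called for 531 probe sets (limma), so the pooled effect averages unequal effects for these. Among the genes named, 35 had a called interaction, and for 16 of these the KSR1 effect with H-RasV12 minus that without was below 0. On the log2 scale it was -6.74 for Aqp1, -5.38 for Igfbp4, -4.88 for Adam8, -4.72 for Uchl1 and -3.21 for Dusp6. It was -2.70 for Prrx2 and -2.55 for Lum, which fell in the main effect and had the larger KSR1 effect with H-RasV12. It was -2.46 for Msln, which rose further without H-RasV12. It was -2.03 for Ptges, -1.65 for Col6a1, -1.61 for Hbegf, -1.55 for Egr2, -1.44 for Plaur, -1.33 for Glrx, -1.14 for Fzd2 and -1.01 for Btg1.

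The difference was above 0 for the other 19 of these genes. It was 4.54 for Creg1, 4.50 for Cd68 and 4.30 for Ctsk, which were high in the double line. Cxcl12 (3.94), Fhl1 (2.80), Fmod (2.74), Gstm2 (1.78), Plat (1.46), Gadd45a (1.17) and Rpl22 (1.02) fell in the main effect, and the KSR1 effect was smaller with H-RasV12. At least Gadd45a and Rpl22 of these were not called in both settings. Peg3 (3.83) and Col4a1 (3.44) were called lower with KSR1 in the absence of H-RasV12 and not in its presence. Pdk4 (2.84), Pfkp (2.69), Ndrg2 (2.18), Krt19 (1.93), Plin2 (1.85), Hk2 (1.61) and Mdh2 (0.99) rose in the main effect, and the KSR1 effect was larger with H-RasV12. Without H-RasV12, Pdk4, Pfkp and Mdh2 were not called.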

How the results depend on the processing

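No named gene that was called changed direction under the alternatives run, while 8 not called (Actb, Dusp6, Igf2, P4hb, Pdgfra, Peg3, Tpm4 and Vcl) took both signs. The main effect gave 532 calls without the replicate 1 arrays and 0 from 4 line means, which leaves 1 residual degree of freedom, and between 671 and 928 without 1 array. The set called in both settings held 199 to 284 probe sets without 1 array. The calls of KSR1 against GFP ran from 482 (without GFP replicate 3) to 934, those of the double line against H-RasV12 from 721 to 1129, and those of the interaction from 339 (without H-RasV12 replicate 2) to 679, with 801 under array weights. Why these counts moved was not tested, beyond the fewer arrays or degrees of freedom. With the replicate block, the paired fit, the main effect gave 1043 calls, of which 930 were among the 971, and the set called in both settings gave 348, all 281 included; KSR1 against GFP gave 1047, the double line against H-RasV12 1265 and the interaction 741. The block ended the call of 6 of 159 named probe sets (Btg1, Cd68, Grem1, Jun, Lifr and Ptges) and of no other. Averaging the contrasts gave 1292 calls and quantile normalization 1015. Of the 159, 141 had a call in the main effect. All 141 lost it with line means, and 33 lost it without the replicate 1 arrays. Probe sets below the filter have no tested value here.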
